A study of Mus musculus with 12 samples.

Results

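The genes described here are the type 2 cytokines, the alarmins that call for them, their receptors and the transcription factor of the cells that make them: Il4, Il5, Il13, Il33, Tslp, Il1rl1, Il4ra, Il13ra1, Il13ra2 and Gata3. They were chosen by name, 10 genes in all, and 9 of them were among the 18194 genes that could be tested. Il1rl1, which encodes the IL-33 receptor ST2, was paired with no probe set in the annotation used and was not analysed here. The 9 genes were read by 15 probe sets: 3 for Il4ra, 5 for Il13ra1 and 1 for each of the other 7.

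Whole lungs of C57BL/6 mice were read on 12 Affymetrix arrays, 3 per group. The 4 groups were FIZZ2 knockout lungs after bleomycin, FIZZ2 knockout lungs after saline, wild type lungs after bleomycin and wild type lungs after saline, all taken on day 21 after an endotracheal injection and perfused with PBS. FIZZ2 is RELM-beta, a secreted resistin-like protein encoded by Retnlb, and bleomycin is a DNA-breaking drug that scars the mouse lung. The labels describe the knockout by name only and leave unsaid whether each replicate is its own animal, so a p-value below reflects only how far these 12 samples scatter. In whole lung, fewer cells of a type and less RNA per cell cannot be told apart.

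In type 2 immunity, injured epithelial and stromal cells release the alarmins IL-33 and TSLP, which act on group 2 innate lymphoid cells (ILC2) and T helper 2 (Th2) cells. These cells depend on the transcription factor GATA3 and secrete IL-4, IL-5 and IL-13. IL-4 and IL-13 share the receptor chain IL-4Rα, which pairs with IL-13Rα1 and signals through the transcription factor STAT6, while IL-13Rα2 binds IL-13 tightly and is known mainly as a decoy. In the lung this pathway is known for allergic inflammation, mucus production, macrophages that express arginase, and fibrosis.

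All values below are log2 RMA values of a gene's brightest probe set unless another is named, and all differences are on that log2 scale. A level at or below 4.63, the 95th percentile of 84 probe sets for odorant, vomeronasal and taste receptors, is called near background. Array medians lay between 5.58 and 5.68, and arrays of the same group correlated at r = 0.988 to 0.997 (12 pairs). The targeted gene Retnlb averaged 3.63 ± 0.12 in knockout bleomycin lungs, 3.69 ± 0.14 in knockout saline, 3.97 ± 0.17 in wild type bleomycin and 3.69 ± 0.14 in wild type saline (SD, n = 3 each), near background throughout, so it offers no check of the labels. All 8 lung epithelium markers were above background on average in every group. The mean of 8 cardiac muscle markers ranged over 7.19 to 9.49 in knockout bleomycin lungs, 9.23 to 9.94 in knockout saline, 7.24 to 7.95 in wild type bleomycin and 9.16 to 9.77 in wild type saline, and their part in the results was not tested.

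At day 21 the type 2 cytokines themselves were near background in all 4 groups, and the changes lay in the receptors and in Gata3. In wild type lungs after bleomycin, Il4ra and Il13ra1 rose and Gata3 fell. In knockout lungs after bleomycin no gene of the set passed the test. Between the bleomycin groups, Gata3 was higher and Il4ra and Il13ra1 were lower in the knockout.

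In numbers, limma called 3 of the 9 genes for bleomycin against saline in wild type (2 higher, 1 lower), where it called 27.7% of all tested genes (13.3% higher, 14.4% lower). A call means an adjusted p under 0.05 (Benjamini-Hochberg, all tested genes). In the knockout it called 0 of 9, against 3.26% of all genes (1.98% higher, 1.29% lower). Of these 9, 2, Il4 and Gata3, had an unadjusted p under 0.05, and the other settings called between 0 and 1, with 1 call each when wild type bleomycin replicate 1 (Il33) or 3 (Gata3) was left out. For the difference between the 2 bleomycin responses it called 1 of 9, Gata3, against 5.02% of all genes (2.03% in the direction of Gata3). Fits without 1 array called 0 (without knockout saline replicate 2 or 3 or knockout bleomycin replicate 1) to 2 (without replicate 2 of either wild type group). For knockout against wild type it called 3 of 9 after bleomycin (1 higher, 2 lower), against 15.4% of all genes (7.52% higher, 7.89% lower). After saline it called 0 of 9, against 0.489% (0.297% higher), with 1 (Gata3) at an unadjusted p under 0.05 and between 0 and 2 under the other settings (1 without wild type bleomycin replicate 3). In wild type 3 of 9 is near the share over all genes, and with 9 genes none of these counts sets the genes apart from the rest.

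**Figure D1:**
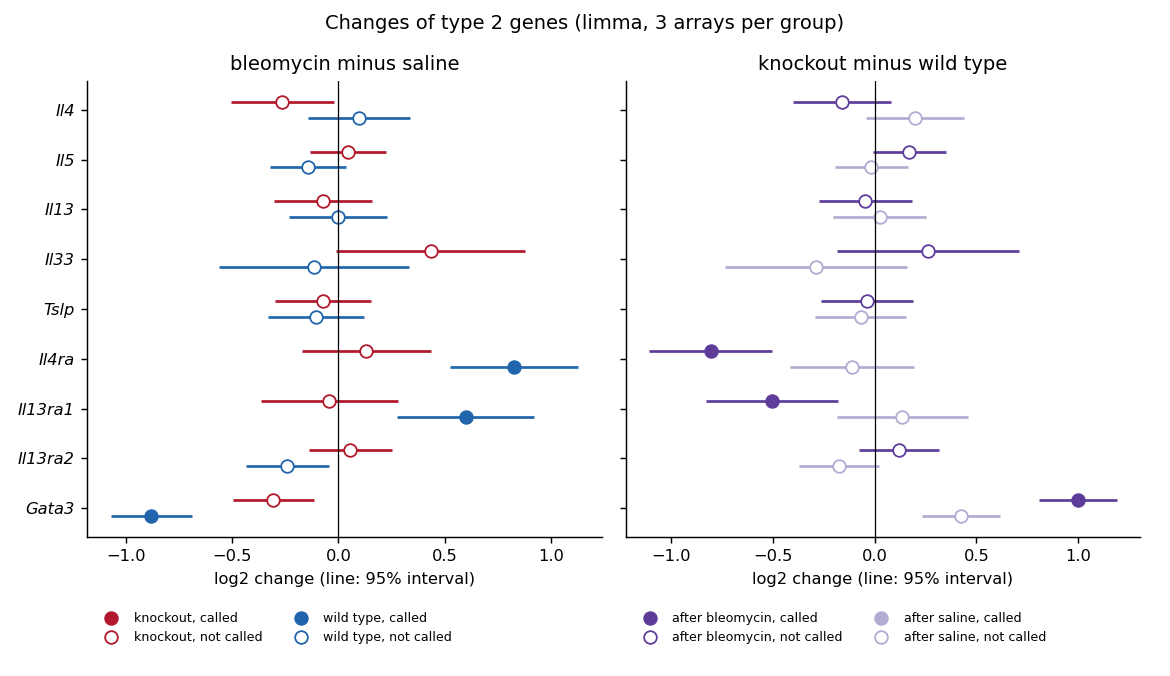
Log2 change of each of the 9 measured genes (points) with its 95% interval (lines) from the limma fit, 3 arrays per group; the left panel shows bleomycin minus saline in knockout and wild type lungs, the right panel knockout minus wild type after bleomycin and after saline. Filled points passed an adjusted p of 0.05: Il4ra, Il13ra1 and Gata3 in wild type after bleomycin and between the bleomycin groups, and none in the knockout or after saline.

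**Figure D2:**
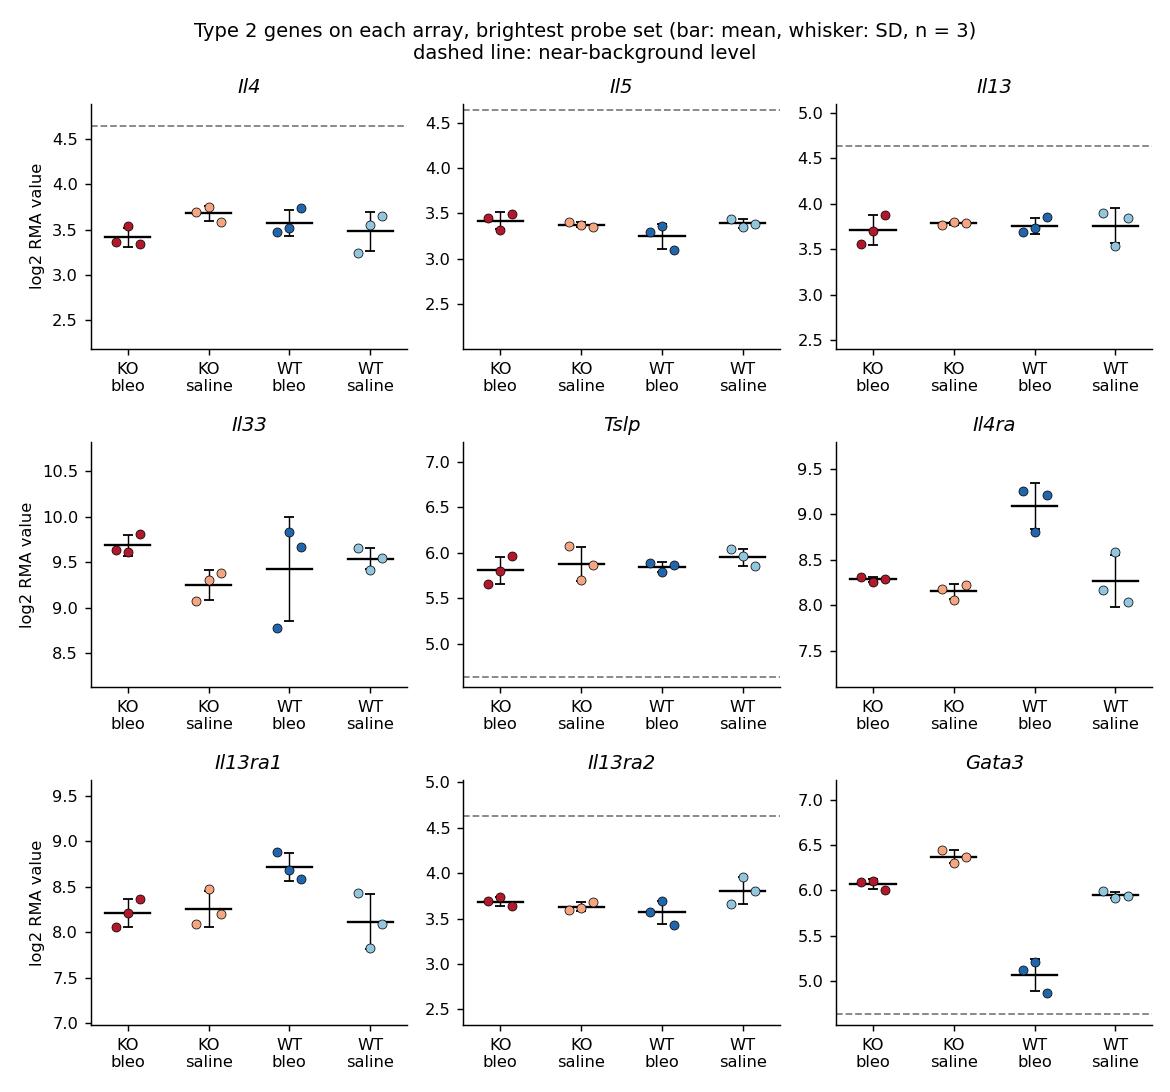
Log2 RMA value of each of the 9 genes on each of the 12 arrays (points), with the group mean (bar) and SD (whisker, n = 3); each panel has its own range on the vertical axis and the dashed line marks the near-background level of 4.63 where it falls in that range. Il4, Il5, Il13 and Il13ra2 lie under the line in every group, and the wild type bleomycin arrays stand apart for Il4ra and Gata3.

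The arrays of the 2 groups compared did not overlap for 3 of the 9 genes in wild type (Il4ra, Il13ra1 and Gata3), where 40.0% of all tested genes did not overlap. They did not overlap for 4 genes in the knockout (Il4, Il33, Il4ra and Gata3), against 27.0% of all genes. Between genotypes the count was 3 after bleomycin (Il4ra, Il13ra1 and Gata3), against 33.3%, and 2 after saline (Il33 and Gata3), against 16.7%. With 9 genes these counts set nothing apart from the share over all genes.

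The ligands come first. Il4, which drives Th2 differentiation and IgE switching, read 3.36, 3.54 and 3.34 in knockout bleomycin lungs, 3.69, 3.75 and 3.58 in knockout saline, 3.47, 3.52 and 3.74 in wild type bleomycin and 3.24, 3.55 and 3.65 in wild type saline. All 12 values were near background, the knockout bleomycin arrays lay under the knockout saline arrays, and the wild type groups overlapped. The changes were -0.26 ± 0.11 (SE) in the knockout (limma, adjusted p = 0.23) and 0.10 ± 0.11 in wild type (adjusted p = 0.566). With array weights, limma called Il4 in wild type at 0.31 (adjusted p = 0.0277), against a range up to 0.947 over the settings tried. At this level transcript and background signal cannot be told apart.

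Il5, the growth and survival factor of eosinophils, read 3.45, 3.31 and 3.50 in knockout bleomycin lungs, 3.40, 3.37 and 3.35 in knockout saline, 3.29, 3.36 and 3.09 in wild type bleomycin and 3.44, 3.35 and 3.38 in wild type saline. The groups overlapped within both genotypes. The changes after bleomycin were 0.05 in the knockout (limma, adjusted p = 0.833) and -0.14 ± 0.08 in wild type (adjusted p = 0.229). With array weights limma called the wild type change at -0.20 (adjusted p = 0.0428, range over the settings 0.0428 to 0.628). Of 5 measured markers of eosinophils, the cells that answer IL-5, 4 were near background: Il5ra, Epx, Prg2 and Ccr3. The other, Siglecf, averaged 6.98 in knockout bleomycin lungs, 6.68 in knockout saline, 6.18 in wild type bleomycin and 6.42 in wild type saline. After bleomycin 1 of the 5 rose in the knockout, beside 1.98% of all genes, and 0 were called in wild type, beside 27.7%. Between the bleomycin groups 2 were higher in the knockout, beside 7.52% of all genes.

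Il13, the ligand most often tied to mucus and fibrosis in the mouse lung, read 3.55, 3.70 and 3.88 in knockout bleomycin lungs, 3.76, 3.80 and 3.79 in knockout saline, 3.68, 3.73 and 3.86 in wild type bleomycin and 3.89, 3.54 and 3.84 in wild type saline. No group stood apart. In wild type the change after bleomycin was -0.0022 with a 95% interval of -0.23 to 0.23 (limma, adjusted p = 0.991), and in the knockout it was -0.07 (adjusted p = 0.781). A probe set this dim limits what can be seen, so a change in a few IL-13-producing cells was not detectable here.

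Il4, Il13 and Il5 are neighbours in the mouse genome, in the order Kif3a, Il4, Il13, Rad50, Il5 and Irf1 on chromosome 11, the Th2 cytokine locus (RefSeq, GRCm38.p6). The Il13 window is shown, 250 bases before to 50 after the annotated start at chr11:53634653-53634952 on the minus strand. Capitals mark matches, on either strand, to AGATAA and to TATAAA (the TATA box). AGATAA is a form of the letters that GATA factors such as GATA3 bind, and the only form searched. The first is in 11.2% of 32851 promoter windows of this length and the second in 13.6%.
Il13: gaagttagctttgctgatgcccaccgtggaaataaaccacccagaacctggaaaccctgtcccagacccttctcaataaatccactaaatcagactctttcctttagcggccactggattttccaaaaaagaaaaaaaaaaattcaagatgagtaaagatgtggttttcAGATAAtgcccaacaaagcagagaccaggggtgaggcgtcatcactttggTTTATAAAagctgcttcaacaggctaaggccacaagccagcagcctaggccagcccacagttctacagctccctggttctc
The GATA match starts at base 170 of the window and 2 overlapping TATA matches start at bases 220 and 222. The windows of Il4 (2 starts) and Il5 held neither. A match describes letters only and not a site in use.

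Of the alarmins, Il33, stored in the nuclei of epithelial and stromal cells until they are damaged, was well above background. It read 9.63, 9.61 and 9.81 in knockout bleomycin lungs, 9.07, 9.30 and 9.39 in knockout saline, 8.77, 9.83 and 9.67 in wild type bleomycin and 9.65, 9.42 and 9.54 in wild type saline. Every knockout bleomycin array lay above every knockout saline array, while in wild type replicate 1 after bleomycin was the lowest of all 12 and the other replicates of its group were among the highest. Means were 9.68 ± 0.11, 9.25 ± 0.16, 9.42 ± 0.57 and 9.54 ± 0.12 (SD, n = 3) in that order of groups.

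The change of Il33 after bleomycin was 0.43 ± 0.21 in the knockout (limma, 95% interval -0.01 to 0.88, adjusted p = 0.293) and -0.11 ± 0.21 in wild type (interval -0.56 to 0.33, adjusted p = 0.723), and neither passed. The difference between the responses, 0.55 ± 0.29, did not pass either (adjusted p = 0.298). Without wild type bleomycin replicate 1 the knockout change was called (adjusted p = 0.0342, range over the settings 0.0342 to 0.561). After saline, Il33 in the knockout lay under wild type on every array, a difference of -0.29 that was not called (adjusted p = 0.678).

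Tslp, an epithelial cytokine that acts on dendritic cells and ILC2, was also above background. It read 5.66, 5.80 and 5.96 in knockout bleomycin lungs, 6.07, 5.70 and 5.87 in knockout saline, 5.89, 5.79 and 5.87 in wild type bleomycin and 6.04, 5.96 and 5.85 in wild type saline. The groups overlapped throughout. The changes after bleomycin were -0.07 in the knockout (limma, adjusted p = 0.775) and -0.10 ± 0.10 in wild type (interval -0.33 to 0.12, adjusted p = 0.50).

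Of the 3 receptor genes measured, Il4ra and Il13ra1 rose in wild type and none was called in the knockout. Il4ra, the chain shared by the receptors of IL-4 and IL-13, read 8.31, 8.25 and 8.29 in knockout bleomycin lungs, 8.17, 8.06 and 8.22 in knockout saline, 9.26, 8.80 and 9.21 in wild type bleomycin and 8.16, 8.59 and 8.04 in wild type saline. The 3 wild type bleomycin arrays were the highest of the 12, and the other 3 groups lay close together. The order of mean levels was wild type bleomycin (9.09), knockout bleomycin (8.28), wild type saline (8.26) and knockout saline (8.15), and only the first stood apart from its neighbours beyond their spread.

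Bleomycin raised Il4ra by 0.83 ± 0.14 in wild type, 1.77-fold (limma, interval 0.52 to 1.13, adjusted p = 0.000748). In the knockout the change was 0.13 ± 0.14 (interval -0.17 to 0.43, adjusted p = 0.690). Il4ra was lower in knockout than in wild type lungs after bleomycin by -0.81 ± 0.14 (adjusted p = 0.00215), and the 2 genotypes differed by -0.11 after saline (adjusted p = 0.830). The difference between the responses, -0.69 ± 0.20, just missed the threshold (adjusted p = 0.0620). It was called without wild type saline replicate 2 (adjusted p = 0.0168) and without wild type bleomycin replicate 2 (adjusted p = 0.0205), the array of each group nearest to the other group, within a range of 0.0110 to 0.127 over the settings.

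A second Il4ra probe set, 1423996_a_at, gave the same picture with a wider gap. Its means were 7.26 ± 0.11 in knockout bleomycin lungs, 7.24 ± 0.07 in knockout saline, 8.20 ± 0.25 in wild type bleomycin and 7.06 ± 0.19 in wild type saline. The rise in wild type was 1.14 ± 0.13 (limma over all probe sets, adjusted p = 7.47e-05) and the difference between the responses was -1.12 ± 0.18 and was called (adjusted p = 0.0112). The third probe set, 1447858_x_at, did not follow: its means were 5.76, 5.63, 5.60 and 5.83 in the same order of groups, and its change in wild type was -0.23 (adjusted p = 0.193).

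Il13ra1, which completes the receptor for IL-13 with the Il4ra product, read 8.05, 8.21 and 8.37 in knockout bleomycin lungs, 8.09, 8.47 and 8.20 in knockout saline, 8.88, 8.68 and 8.58 in wild type bleomycin and 8.43, 7.83 and 8.09 in wild type saline. The wild type bleomycin arrays were again the 3 highest, by a small margin over single arrays of the other groups. Bleomycin raised it by 0.60 ± 0.15 in wild type, 1.51-fold (limma, interval 0.28 to 0.92, adjusted p = 0.00887). In the knockout the change was -0.04 ± 0.15 (interval -0.36 to 0.28, adjusted p = 0.919), and the difference between the responses, -0.64 ± 0.21, was not called (adjusted p = 0.0981).

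After bleomycin, Il13ra1 was lower in the knockout by -0.50 ± 0.15 (limma, adjusted p = 0.0367, range over the settings 0.0204 to 0.144). This call rests on few arrays: the adjusted p passed 0.05 when wild type bleomycin replicate 1 (0.131) or 2 (0.0680) was left out, and likewise for knockout bleomycin replicate 1 (0.139) or 2 (0.0834) and knockout saline replicate 3 (0.05005, just over the threshold). None of the 5 Il13ra1 probe sets passed for this contrast when all 45101 probe sets were tested (adjusted p = 0.0616 for the brightest). The call in wild type held in every fit without 1 array and was lost with array weights (0.31, adjusted p = 0.0750).

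The other Il13ra1 probe sets showed a larger rise and one deviant array. In wild type the changes were 0.93 (adjusted p = 0.0381) for 1427165_at, 0.996 (adjusted p = 0.0380) for 1451775_s_at and 0.96 (adjusted p = 0.00461) for 1427164_at, all called by limma, against -0.08 (adjusted p = 0.697) for the near-background 1425625_at. Wild type saline replicate 2 was the lowest of the 12 arrays on the brightest probe set (7.83) and on these 3 called ones, at 6.80 where the other replicates had 7.80 and 8.10, at 6.21 where they had 7.22 and 7.65, and at 5.91 where they had 6.63 and 6.79. The same array had the highest Il4ra value of its group on the brightest probe set, so it was not low on both receptor chains.

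**Figure D3:**
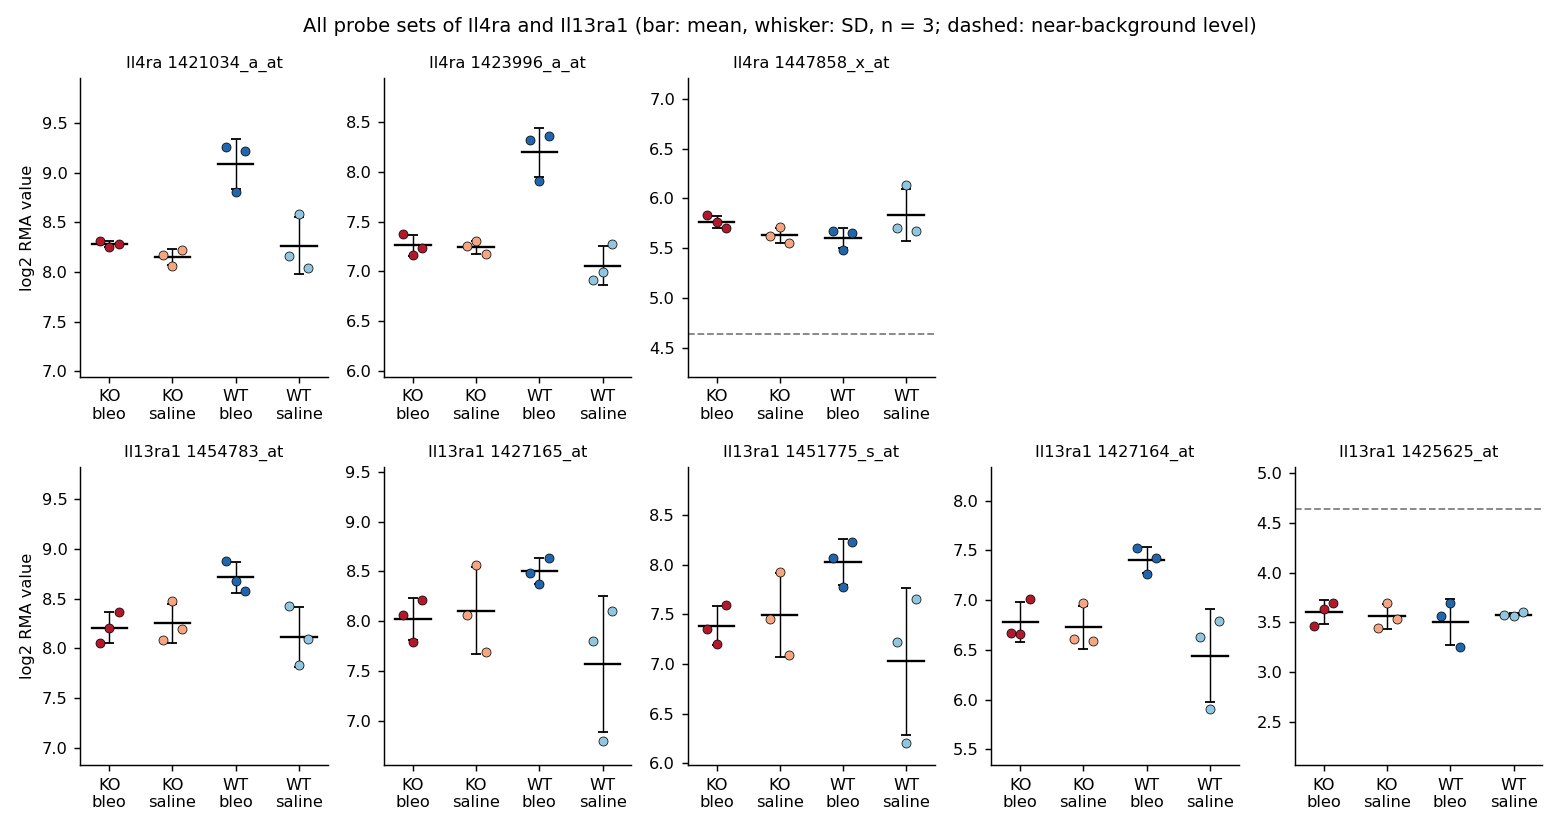
Log2 RMA value on each array (points) for the 3 probe sets of Il4ra (upper row) and the 5 of Il13ra1 (lower row), with group mean (bar) and SD (whisker, n = 3); each panel has its own range on the vertical axis and the dashed line is the near-background level of 4.63. The wild type bleomycin arrays are the highest on Il4ra 1421034_a_at and 1423996_a_at, and wild type saline replicate 2 is the lowest of the 12 arrays on 4 of the Il13ra1 panels.

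Since both chains rose together in wild type, their promoter windows are shown (RefSeq, GRCm38.p6, 250 bases before to 50 after the start). The Il4ra window is chr7:125552021-125552320 and the Il13ra1 window chrX:36111858-36112157, both on the plus strand. Capitals mark matches, on either strand, to GGGCGG, the GC box that binds SP1 and that 35.7% of all windows hold.
Il4ra: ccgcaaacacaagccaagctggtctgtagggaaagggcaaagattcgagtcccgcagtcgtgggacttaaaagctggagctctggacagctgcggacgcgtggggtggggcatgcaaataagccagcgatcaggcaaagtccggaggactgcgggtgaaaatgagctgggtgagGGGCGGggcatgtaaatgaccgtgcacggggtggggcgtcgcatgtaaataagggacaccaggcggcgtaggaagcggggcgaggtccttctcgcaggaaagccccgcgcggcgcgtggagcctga
Il13ra1: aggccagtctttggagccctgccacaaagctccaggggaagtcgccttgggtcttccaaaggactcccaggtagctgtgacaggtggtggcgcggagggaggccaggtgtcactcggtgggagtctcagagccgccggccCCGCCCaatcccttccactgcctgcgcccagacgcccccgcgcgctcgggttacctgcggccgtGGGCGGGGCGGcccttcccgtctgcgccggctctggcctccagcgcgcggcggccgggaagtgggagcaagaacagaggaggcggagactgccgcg
Il4ra has 1 match, at base 175, and Il13ra1 has 3, at bases 141, 205 and 210, of which those at 205 and 210 overlap. Both windows were rich in G and C (62.0% with 25 CpG in Il4ra, 71.0% with 28 in Il13ra1), beside a median of 52.7% and 7 CpG over all windows, and beside 46.0% and 3 in the Il13 window. Neither held AGATAA or the TATA box letters, nor those of the STAT6 palindrome (TTC, any 4 bases, GAA), which 6.95% of all windows hold.

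Il13ra2, the decoy, was near background in all groups. It read 3.69, 3.74 and 3.64 in knockout bleomycin lungs, 3.60, 3.62 and 3.68 in knockout saline, 3.58, 3.69 and 3.43 in wild type bleomycin and 3.66, 3.96 and 3.81 in wild type saline. The groups overlapped in both genotypes. The change in wild type, -0.24 ± 0.09, was not called (limma, adjusted p = 0.0646); leaving out wild type saline replicate 1 (0.0329) or wild type bleomycin replicate 2 (0.0379) made it a call, over a range of 0.0329 to 0.230. In the knockout it was 0.06 (adjusted p = 0.808).

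Gata3 gave the clearest pattern of the set. It read 6.09, 6.11 and 6.00 in knockout bleomycin lungs, 6.44, 6.31 and 6.37 in knockout saline, 5.12, 5.21 and 4.87 in wild type bleomycin and 5.99, 5.92 and 5.94 in wild type saline. No group overlapped another. The order of mean levels was knockout saline (6.37 ± 0.07), knockout bleomycin (6.07 ± 0.06), wild type saline (5.95 ± 0.04) and wild type bleomycin (5.07 ± 0.17). Knockout bleomycin and wild type saline were nearly level, 6.00 being the lowest array of the one and 5.99 the highest of the other, and their difference was not tested.

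The change of Gata3 after bleomycin was -0.31 ± 0.09 in the knockout, which was not called (limma, interval -0.50 to -0.12, adjusted p = 0.0824), and Gata3 fell by 0.88 ± 0.09 in wild type (interval -1.07 to -0.69, adjusted p = 1.49e-05). The knockout change was called without wild type bleomycin replicate 3 (adjusted p = 0.0460), over a range of 0.0460 to 0.243. The difference between the responses was 0.57 ± 0.12 (interval 0.31 to 0.84) and was called (adjusted p = 0.0227, range over the settings 0.00599 to 0.0604). That call was lost without wild type saline replicate 1 (0.0552), knockout saline replicate 2 (0.0604) or 3 (0.0508), or knockout bleomycin replicate 1 (0.0592).

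After bleomycin, Gata3 was 2.0-fold higher in the knockout than in wild type, a difference of 0.998 ± 0.09 (limma, interval 0.81 to 1.19, adjusted p = 2.83e-05). After saline it was higher by 0.42 ± 0.09, which was not called (adjusted p = 0.0620). The saline difference was called without wild type bleomycin replicate 3 (adjusted p = 0.0310) and when only genes with a mean of at least 5 were tested (adjusted p = 0.0499), over a range of 0.00791 to 0.290.

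The Gata3 window is chr2:9878551-9878850 on the minus strand (RefSeq, GRCm38.p6), shown because Gata3 moved opposite to the receptor chains. Capitals mark matches, on either strand, to the letters GGGCGG of the GC box.
Gata3: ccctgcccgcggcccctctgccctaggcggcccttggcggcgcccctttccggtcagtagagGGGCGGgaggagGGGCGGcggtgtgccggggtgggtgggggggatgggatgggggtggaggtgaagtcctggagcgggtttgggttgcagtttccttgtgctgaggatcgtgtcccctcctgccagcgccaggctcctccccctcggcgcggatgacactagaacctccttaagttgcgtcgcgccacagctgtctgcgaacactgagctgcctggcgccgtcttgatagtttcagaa
The 2 matches start at bases 63 and 75. With 67.3% G and C and 22 CpG the window resembles those of Il4ra and Il13ra1 in composition. Like them it held no match to AGATAA or to the TATA box or STAT6 letters. Other forms of the GATA letters were not searched.

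Gata3 is made by T cells and innate lymphoid cells and by some epithelial cells. Many lymphocyte markers also fell in wild type after bleomycin, but not all. The mean of 8 T cell markers ranged over 6.28 to 6.45 in knockout bleomycin lungs, 6.53 to 6.76 in knockout saline, 5.77 to 6.15 in wild type bleomycin and 6.52 to 6.67 in wild type saline. After bleomycin 2 of these 8 fell in the knockout and 6 fell in wild type (limma, adjusted p under 0.05), and 4 were higher in knockout than in wild type bleomycin lungs. Over all genes these shares were 1.29%, 14.4% and 7.52%. Cd8b1 averaged 6.09, 6.69, 5.02 and 6.48 in the same order of groups, and Cd4 6.41, 6.36, 6.55 and 6.45. Both were named after their values were seen. Between genotypes after saline the T cell means overlapped. The mean of 8 natural killer (NK) and Th1 markers, 2 of them near background, ranged over 5.59 to 5.92, 5.97 to 6.09, 4.98 to 5.30 and 5.75 to 6.25 in the same order of groups. Of these, 0 fell in the knockout and 5 in wild type, beside 1.29% and 14.4% of all genes. The part of T and NK cells in the Gata3 result was not tested.

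Some markers of other cells were called too. Of the 8 lung epithelium markers 0 fell in the knockout and 2 in wild type after bleomycin, beside 1.29% and 14.4% of all genes. Of the same 8, 2 were higher in knockout than in wild type bleomycin lungs, beside 7.52% of all genes. The median change of these markers was 0.10 in the knockout and -0.15 in wild type. Gata3 changed by -0.31 in the knockout and -0.88 in wild type. The mean of the epithelium markers ranged over 11.87 to 11.92 in knockout bleomycin lungs, 11.75 to 11.83 in knockout saline, 11.38 to 11.82 in wild type bleomycin and 11.65 to 11.84 in wild type saline. The counts were the same for 8 mast cell and basophil markers, 6 of them near background, whose mean ranged over 5.37 to 5.42, 5.43 to 5.53, 5.12 to 5.29 and 5.43 to 5.51 in that order of groups. Of the 8 cardiac muscle markers, 1 fell in the knockout and 8 in wild type. The part of any of these markers in the Gata3 result was not tested.

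Of 8 measured markers of ILC2 and Th2 cells other than Gata3, 5 were near background. In wild type 1 rose (Klrg1) and 1 fell (Rora), beside 13.3% and 14.4% of all genes. In the knockout 0 were called, beside 3.26% of all genes. The mean of the 8 ranged over 5.31 to 5.40 in knockout bleomycin lungs, 5.37 to 5.38 in knockout saline, 5.44 to 5.52 in wild type bleomycin and 5.29 to 5.55 in wild type saline. The bleomycin and saline groups overlapped in both genotypes. Between the bleomycin groups the knockout arrays lay under the wild type arrays. In that comparison 1 of the 8 was called higher and 1 lower in the knockout, beside 7.52% and 7.89% of all genes. The part of ILC2 and Th2 cells in the Gata3 result was not tested.

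The receptor chains are found on many cells, macrophages among them. The mean of 8 macrophage markers ranged over 9.20 to 9.34 in knockout bleomycin lungs, 8.75 to 8.87 in knockout saline, 9.50 to 9.88 in wild type bleomycin and 8.61 to 8.92 in wild type saline. After bleomycin 4 of the 8 rose in the knockout and 5 in wild type, and 3 were lower in knockout than in wild type bleomycin lungs. Over all genes these shares were 1.98%, 13.3% and 7.89%. The part of macrophages in the rise of Il4ra and Il13ra1 was not tested.

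**Figure D4:**
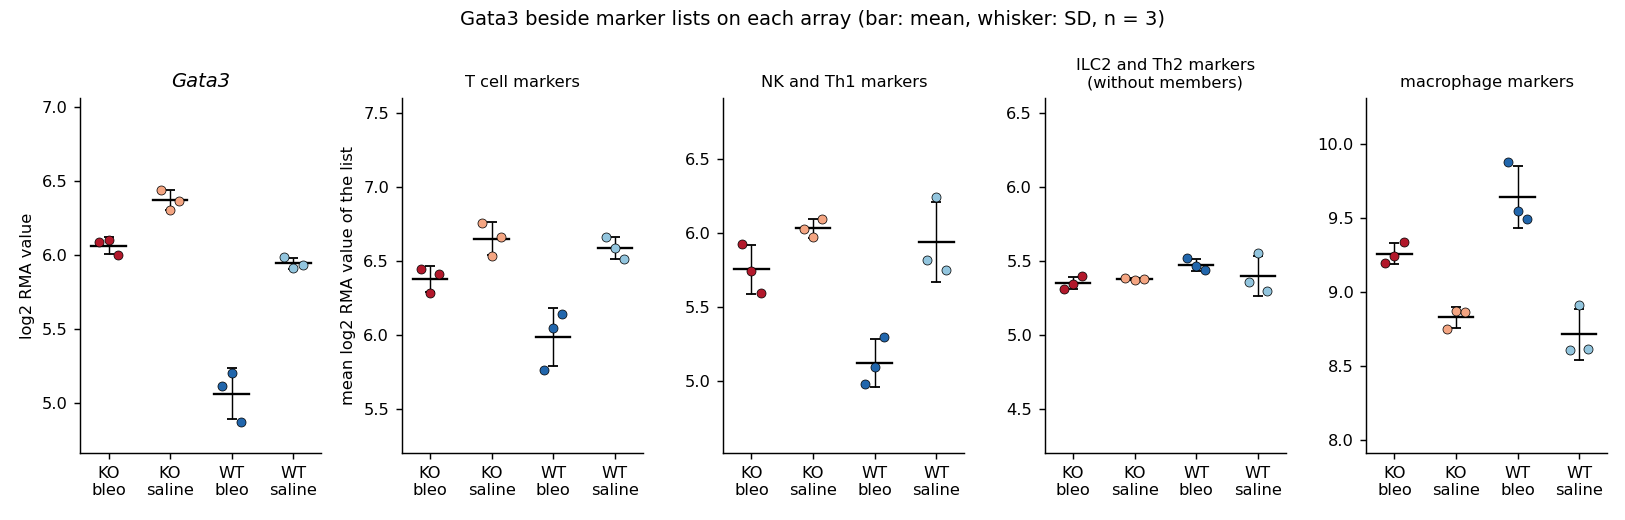
Log2 RMA value of Gata3 and, per array, the mean log2 value of the T cell, NK and Th1, ILC2 and Th2 (without the genes described here) and macrophage marker lists (points: arrays; bar: mean; whisker: SD, n = 3; vertical ranges differ between panels). Gata3 and both the T cell and the NK and Th1 means are lowest in wild type bleomycin lungs (T cell mean 5.77 to 6.15), the macrophage mean is highest there (9.50 to 9.88), and the ILC2 and Th2 mean lies between 5.29 and 5.55 on all arrays.

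Across the 12 arrays, Il4ra and Gata3 correlated at r = -0.913, Il13ra1 and Gata3 at -0.677, and Il4ra and Il13ra1 at 0.608. These values describe 12 arrays in 4 groups and mostly restate the group means. Gata3 was the one gene of the set whose group means spanned at least 1. Genes named only by a clone or a gene model were left out of the ranking that follows. The remaining genes most like Gata3 over the 12 arrays were G0s2, an inhibitor of fat breakdown (r = 0.979), the kinesin gene Kif13b (0.971), the zinc finger gene Zfp667 (0.969), Glb1l2 (0.967) and the interferon-inducible family gene Ifi213 (0.965).

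Further genes of the pathway were taken from 6 lists, which also answer to other signals than IL-4 and IL-13. Of 8 other type 2 ligands and alarmins measured, 0 were called in the knockout and 1 fell in wild type: Csf2, which encodes GM-CSF, by 0.74 (limma, adjusted p = 0.00612). Their median change was 0.07 in the knockout and -0.02 in wild type, beside 0.01 and -0.04 over all genes. Without knockout bleomycin replicate 3, 1 was called in the knockout, and 2 were called in wild type without wild type saline replicate 2 or wild type bleomycin replicate 3. After saline 1 gene of the list, Il1b, was higher in knockout than in wild type lungs, by 1.53 (limma, adjusted p = 0.0111). Over all genes 0.297% were higher there. The Il1b call was lost without knockout saline replicate 3, and Il1b was named after its values were seen.

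Of 13 other receptor chains, 0 were called in the knockout (4 at an unadjusted p under 0.05) and 4 rose in wild type, 30.8% of the list beside 13.3% of all genes that rose. These were Csf2rb, the chain shared by the receptors of IL-5, IL-3 and GM-CSF (1.55, limma adjusted p = 6.04e-05), Il1r1, the IL-1 receptor (0.99, adjusted p = 1.05e-05), Osmr, the oncostatin M receptor, at 0.86, and Crlf2, the TSLP receptor chain (0.62, adjusted p = 0.000717). The ligands Tslp and Il5 did not pass in the same lungs. The list's median was 0.10 in the knockout and 0.11 in wild type. In the knockout Csf2rb changed by 0.70 (adjusted p = 0.0630), and it was called without wild type saline replicate 2 (0.0219) or 3 (0.0354) or knockout bleomycin replicate 1 (0.0372).

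Of 21 signalling genes and negative regulators, 0 were called in the knockout (4 at an unadjusted p under 0.05) and 8 in wild type, 5 higher and 3 lower. That is 38.1% of the list in wild type, beside 27.7% of all genes, and none in the knockout, beside 3.26%. Socs3, a feedback inhibitor of cytokine receptors that signal through STAT3, changed by 0.65 in the knockout (limma, adjusted p = 0.0889) and rose by 2.27 in wild type (adjusted p = 3.71e-06), and the responses differed by -1.62 (adjusted p = 0.00698). Jak3, the kinase of receptors with the common gamma chain such as that of IL-4, changed by 0.12 in the knockout (adjusted p = 0.550) and rose by 0.63 in wild type (adjusted p = 0.000217). Without knockout bleomycin replicate 1, Socs3 was called in the knockout as well (adjusted p = 0.0234).

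Of 13 regulators of type 2 lymphocytes, 1 was called in the knockout (Ikzf1, -0.43) and 6 in wild type, 3 higher and 3 lower. These are 7.69% of the list in the knockout, beside 3.26% of all genes, and 46.2% in wild type, beside 27.7%. Junb, an AP-1 subunit that acts on Il4 in Th2 cells, changed by -0.24 in the knockout (limma, adjusted p = 0.481) and rose by 1.13 in wild type (adjusted p = 0.000225). Satb1, a chromatin organizer of T cells, changed by -0.43 in the knockout (adjusted p = 0.0674) and fell by 0.70 in wild type (adjusted p = 0.000598). The single knockout call was lost in 8 of the 12 fits without 1 array, among them each without 1 knockout array.

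All 18 IL-4 and IL-13 response genes of macrophages were measured. In the knockout 3 rose, 16.7% of the list beside 1.98% of all genes, and in wild type 9 rose and 9 were not called, where 13.3% of all genes rose; Il4 and Il13 were near background in the same lungs. The median change was 0.15 in the knockout and 0.53 in wild type. Arg1, the arginase of such macrophages, read 5.72, 6.03 and 5.90 in knockout bleomycin lungs, 5.55, 5.70 and 5.73 in knockout saline, 10.85, 9.09 and 8.31 in wild type bleomycin and 5.00, 5.25 and 4.87 in wild type saline.

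Only the wild type bleomycin arrays were high for Arg1, and replicate 1 was the highest. Its change was 0.23 in the knockout (limma, adjusted p = 0.841) and 4.38 in wild type (adjusted p = 1.38e-05), a difference of -4.15 (adjusted p = 0.00441). Clec7a, the beta-glucan receptor, rose in both genotypes, by 1.03 in the knockout (adjusted p = 0.00136) and 2.0 in wild type (adjusted p = 7.15e-07), and the responses differed by -0.97 (adjusted p = 0.0111). Clec7a was already higher in knockout than in wild type lungs after saline, by 0.69 (adjusted p = 0.0332, lost in 7 of the 12 fits without 1 array, each with 1 saline array or wild type bleomycin replicate 2 left out), and between the bleomycin groups the difference was -0.27 and not called (adjusted p = 0.175). The difference between the responses was called for 6 of the 18, 33.3% of the list, all with the lower response in the knockout. Over all genes 3% were called in that direction. Fits without 1 array called between 2 and 6 genes in the knockout: 6 without knockout bleomycin replicate 1, and 2 without any 1 of the knockout saline arrays or knockout bleomycin replicate 2 or 3, where Mrc1, the mannose receptor, was lost.

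Of 19 IL-13 response genes of epithelium and stroma, 2 rose in the knockout, and 7 rose and 3 fell in wild type, with medians of 0.02 and 0.40. The called share was 10.5% in the knockout, beside 3.26% of all genes, and 52.6% in wild type, beside 27.7%. Slc26a4, the anion exchanger pendrin of airway epithelium, rose by 1.66 in the knockout (limma, adjusted p = 0.00826) and by 2.48 in wild type (adjusted p = 4.12e-05). Timp1, an inhibitor of metalloproteinases, rose by 1.32 in the knockout (adjusted p = 0.0360) and 4.01 in wild type (adjusted p = 2.52e-06). The 3 falls in wild type were of genes tied to mucus: Muc5b, a gel-forming mucin, fell by 1.07, the trefoil factor gene Tff2 by 1.49, and Spdef, a transcription factor of goblet cells, by 0.43; these 3, like Ikzf1 above, were named after their values were seen. In the knockout 1 gene was called without any 1 of the 3 knockout saline arrays or without knockout bleomycin replicate 2 or 3.

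**Figure D5:**
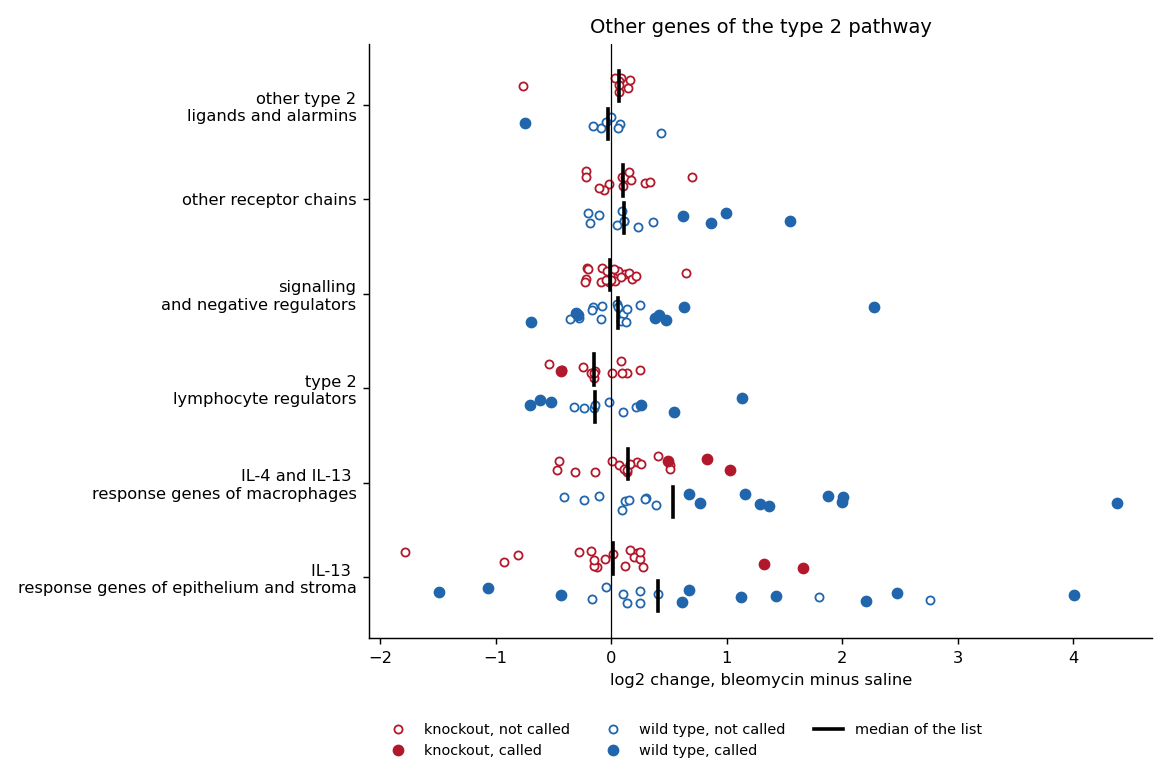
Log2 change after bleomycin of every measured gene of the 6 lists (points), in knockout (upper row of each list) and wild type lungs (lower row); filled points passed an adjusted p of 0.05 (limma, 3 arrays per group) and the black bar is the median of the list. The macrophage list has a median of 0.15 in the knockout and 0.53 in wild type, with Arg1 farthest to the right at 4.38 in wild type.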

How the data were processed

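Whole-lung total RNA of 12 samples was labelled and hybridized to Affymetrix arrays, 1 array per sample, in 4 groups of 3. The deposited table holds log2 RMA values made by the authors for 45101 probe sets; affy, RMA and limma are named in the submitters' processing notes, with settings and versions not given in the sources used here. The annotation gives 1 gene for 34958 probe sets, several for 932 and no gene for 9211; Entrez identifiers tied 34754 of the first to the mouse gene table. The brightest probe set over all arrays stood for each of 18194 genes, and no filter was applied.

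All 12 arrays entered 1 limma fit (limma 3.58.1, R 4.3.3) with a mean per group, no block, 5 contrasts and untrended eBayes (degrees of freedom: 8 residual, 4.86 prior). P-values were Benjamini-Hochberg adjusted over all genes and called under 0.05; probe sets were also tested over all 45101. Errors are the SE of the fit or the SD over 3 arrays, and the number of arrays limits the precision. The procedure was tested on simulated data. Every member was named; of each pathway list the text draws on up to 4 genes with the smallest p in wild type. The members and lists were chosen with earlier results of these data known. Same-numbered replicates were checked for pairing: of 18 pairs of samples across groups, deviations from the group means correlated at -0.30 to 0.20, so numbers were not taken as pairs. The alternatives are given in the closing section. Promoter windows and motif shares come from RefSeq (GRCm38.p6). Python 3.11.15 and matplotlib 3.10.9 drew the figures.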

Additional observations from a re-analysis of the deposited data

Results flagged for a closer look

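On the brightest probe set of each gene, the response of Gata3 to bleomycin differed between genotypes by the test of the difference itself. The knockout response minus the wild type response was 0.57 ± 0.12 on the log2 scale (limma, adjusted p = 0.0227), with changes of -0.31 in knockout and -0.88 in wild type lungs. The call was lost in 4 of the 12 fits without 1 array (adjusted p up to 0.0604). When every probe set was tested, Gata3 kept the call (adjusted p = 0.0413) and a second Il4ra probe set was called as well (-1.12, adjusted p = 0.0112). No explanation for the difference was tested.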

How the results depend on the processing

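Of 916 combinations of a gene, a comparison and another setting, 886 stayed on the same side of the threshold, 31 of them uncalled with another sign, 14 lost a call, 16 gained one and 0 called values reversed. The calls of Il4ra and Gata3 in wild type and between the bleomycin groups held under all 21 settings run. With array weights, 4 genes were called in wild type (Il4 and Il5 gained, Il13ra1 lost), 1 gene was called in the knockout, 3 for the difference between the responses and 2 for genotype after saline, and among all genes 7175, 1286, 1888 and 1105 were called, against 5045, 594, 914 and 89 without. With only genes of a mean of at least 5, which leaves 5 of the 9, 1 was called for genotype after saline. Testing every probe set called 386, 497 and 54 genes for the knockout, the difference between the responses and genotype after saline. Leaving out 1 array at a time, limma called 3 to 4 genes in wild type, 0 to 1 in the knockout, 0 to 2 for the difference between the responses, 2 to 3 for genotype after bleomycin and 0 to 1 after saline. The Il13ra1 call between the bleomycin groups was also lost with the mean of all its probe sets (-0.43, adjusted p = 0.144). With the replicate number as a block, which the labels do not say pairs the samples, 3, 0, 1, 2 and 0 genes were called for wild type, knockout, the difference between the responses, and genotype after bleomycin and after saline; the Il13ra1 call between genotypes after bleomycin was lost (adjusted p = 0.0631). Among all genes the block gave 601 calls for the difference between the responses, against 914 without it. For the difference between the responses, no fit on only the groups of the contrast exists beside the full one. Dim probe sets limit Il4, Il5, Il13 and Il13ra2, and the wild type bleomycin values of Gata3 lay close to background. The causes of these changes were not tested.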
